A study of Mus musculus with 7 samples.

Results

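The nuclear genes of the mitochondrial respiratory chain and ATP synthase were examined in whole lung of Scgb3a2 knockout and wild type mice. They were chosen by symbol, as the entries whose names begin with Nduf and a subunit letter and number, Uqcr, Atp5, or Cox4 to Cox8, together with Sdha, Sdhb, Sdhc and Sdhd. This took 91 of the 28828 entries of the count table, of which 40 belonged to complex I, 4 to complex II, 9 to complex III, 18 to complex IV and 20 to complex V. The series holds 7 RNA sequencing libraries of C57BL/6 mouse lung, 4 from wild type animals (WT2, WT3, WT4 and WT6) and 3 from animals with a knockout of Scgb3a2 (KO3, KO4 and KO5). Scgb3a2 encodes a small secreted protein of airway club cells, and the design asks which lung transcripts differ when it is disrupted. The labels name no treatment and give neither age nor sex, nor which part of the gene was removed. Nothing in them ties a library to a single mouse, and the p-values below therefore measure only the spread between libraries.

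Totals ranged from 13071262 to 16480006 counts per library. The targeted gene had 195 to 293 CPM (counts scaled to library size) in wild type and 1.21 to 2.68 CPM in knockout libraries (log2 fold change -7.20, adjusted p = 8.06e-07 in edgeR's quasi-likelihood test). Of the markers of lung epithelium, the summed alveolar type 2 list held 13349 to 18474 CPM per library. The libraries WT6 and KO5 stood apart from the other 5 on the leading principal component (37.5% of the variance). Many, but not all, of the fold changes below are also given without 1 or both. The plasma and B cell list, at 1009 ± 799 CPM in knockout (SD, n = 3) against 105 ± 6.37 in wild type libraries (SD, n = 4), was measured beside the members, and its part in the values below was not tested.

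The respiratory chain sits in the inner membrane of mitochondria. Complexes I and II feed electrons from NADH and succinate into ubiquinone, complex III passes them to cytochrome c, and complex IV hands them to oxygen. Complexes I, III and IV pump protons, and complex V, the ATP synthase, uses the proton gradient to make ATP. Most subunits are encoded in the nucleus, and a small core set is encoded by mitochondrial DNA. Several complex IV subunits come in pairs of isoforms, one found widely and one known from heart, skeletal muscle or brown fat. Nuclear subunit genes are known targets of the transcription factors NRF1, GABPA (an ETS factor), YY1 and ESRRA.

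The stretches upstream of 4 members are shown because they carry, or lack, the motifs of those factors. Cox6a1 and Atp5k hold the NRF1 motif, and Cox8a and Cox8b are the isoform pair whose log2 fold changes lay furthest apart. The sequences are from RefSeq (GRCm38.p6), read 5′ to 3′ on the gene's strand, and motif matches within them are in capitals. The positions are chr5:115348959-115349208 (Cox6a1), chr5:108434419-108434649 (Atp5k), chr19:7217617-7217866 (Cox8a) and chr7:140900447-140900696 (Cox8b), all on the minus strand.
Cox6a1: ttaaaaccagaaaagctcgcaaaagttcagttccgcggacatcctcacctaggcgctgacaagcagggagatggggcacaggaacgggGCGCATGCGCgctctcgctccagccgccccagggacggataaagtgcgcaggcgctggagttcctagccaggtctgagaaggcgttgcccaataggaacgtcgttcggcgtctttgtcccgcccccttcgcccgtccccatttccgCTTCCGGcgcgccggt
Atp5k: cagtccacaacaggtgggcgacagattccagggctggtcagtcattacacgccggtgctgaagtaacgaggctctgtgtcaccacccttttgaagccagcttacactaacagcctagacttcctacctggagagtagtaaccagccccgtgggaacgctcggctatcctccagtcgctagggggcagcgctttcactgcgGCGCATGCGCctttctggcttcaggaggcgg
Cox8a: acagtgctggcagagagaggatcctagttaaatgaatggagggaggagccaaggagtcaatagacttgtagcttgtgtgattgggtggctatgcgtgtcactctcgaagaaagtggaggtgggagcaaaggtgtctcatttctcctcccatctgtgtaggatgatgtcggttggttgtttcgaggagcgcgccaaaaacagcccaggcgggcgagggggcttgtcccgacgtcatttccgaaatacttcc
Cox8b: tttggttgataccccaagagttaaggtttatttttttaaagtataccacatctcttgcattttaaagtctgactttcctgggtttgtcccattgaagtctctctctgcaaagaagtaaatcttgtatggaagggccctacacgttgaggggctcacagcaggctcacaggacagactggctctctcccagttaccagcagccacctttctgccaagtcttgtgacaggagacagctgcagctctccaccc
In Cox6a1 the NRF1 motif, the first run of capitals, began 162 bases before the RefSeq start. CTTCCGG, the reverse complement of the ETS motif, began 16 bases before it. The annotated Cox6a1 exon reaches 23 bases before this start, so the ETS match lies within the exon. An exon of Gm42903 also overlaps the stretch. In Atp5k the NRF1 motif began 50 bases before the start, and the printed stretch ends 20 bases before it. The annotated Atp5k exon reaches 49 bases before that start, so most of the motif lies within the exon. The ETS and ESRRA motifs were also matched at Atp5k, outside the printed stretch. The printed Cox8a stretch holds no whole match, since its ETS match runs past the start site, and the Cox8b stretch holds none of the 4 motifs.

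The motifs were searched on both strands, from 250 bases before to 50 bases after each start, in 72 windows of 67 members that matched RefSeq by symbol. The NRF1 motif, as capitalised in Atp5k, was in 5 of these windows (6.9%), against 1.0% of all 32851 promoter windows. It lay at Atp5g2, Atp5k, Cox6a1, Ndufa11 and Uqcrc1. The ETS motif CCGGAAG was in 17 windows (23.6%, against 8.9% of all), the YY1 motif AAGATGG in 10 (13.9%, against 6.3%) and the ESRRA motif AAGGTCA in 8 (11.1%, against 4.7%). These are matches of letters and were not tested as binding sites.

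All protein-coding members except Cox7b2 were measured in lung RNA. The filter on low counts kept 83 of the 91 members, namely 38 of complex I, 4 of complex II, 8 of complex III, 16 of complex IV and 17 of complex V. The 8 not kept were Atp5c1-ps, Atp5l-ps2, Atp5l2-ps, Cox6c2, Ndufa11b, Ndufb4c and Uqcrh-ps1, which are annotated as processed pseudogenes, and Cox7b2, the testis form of a complex IV subunit. The kept set includes Ndufb1-ps, which is annotated as a long noncoding RNA. Cox7b2 and Atp5c1-ps had 0 counts in all 7 libraries, which allows up to 0.182 to 0.23 CPM per library for counting error alone. All members together took 0.324% to 0.341% of the counts in 6 libraries and 0.39% in WT6.

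Levels were compared between genes as CPM per kilobase of exon, in wild type lung. Complex V held the member with the highest level, the catalytic beta subunit Atp5b at 197 ± 20.2 CPM per kb (SD, n = 4). Its partner Atp5a1, the alpha subunit, had 114 ± 3.49. The highest members of the other complexes were Cox6a1 at 114 ± 15.9 for complex IV, the hinge protein Uqcrh at 110 ± 6.25 for complex III (followed by Uqcrb at 100.1), Ndufa7 at 64.0 ± 11.1 for complex I and the flavoprotein Sdha at 55.9 ± 5.94 for complex II. Without WT6, Uqcrb came first in complex III at 113 ± 17.1 against 110 ± 7.55 for Uqcrh (n = 3), so their order rests on that library, and the highest members of the other complexes stayed first. At the low end stood Ndufb2 of complex I (2.68 ± 0.43), Cox6b2 of complex IV (5.67 ± 1.29), Atp5g1 of complex V (6.31 ± 0.70), Uqcrq of complex III (6.42 ± 1.21) and Sdhc of complex II (11.7 ± 2.14). Without WT6 the lowest complex IV member was Cox8b instead of Cox6b2, and the other 4 kept their place. The annotated exons of Ndufb2 and Atp5g1 cover 4375 and 4912 bases, and their level per kb depends on this annotated length. The same holds for Sdhc, with 3171 bases. Its wild type mean of 37.1 CPM was above the 30.4 CPM of Sdhd, which has 1231 bases.

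**Figure D1:**
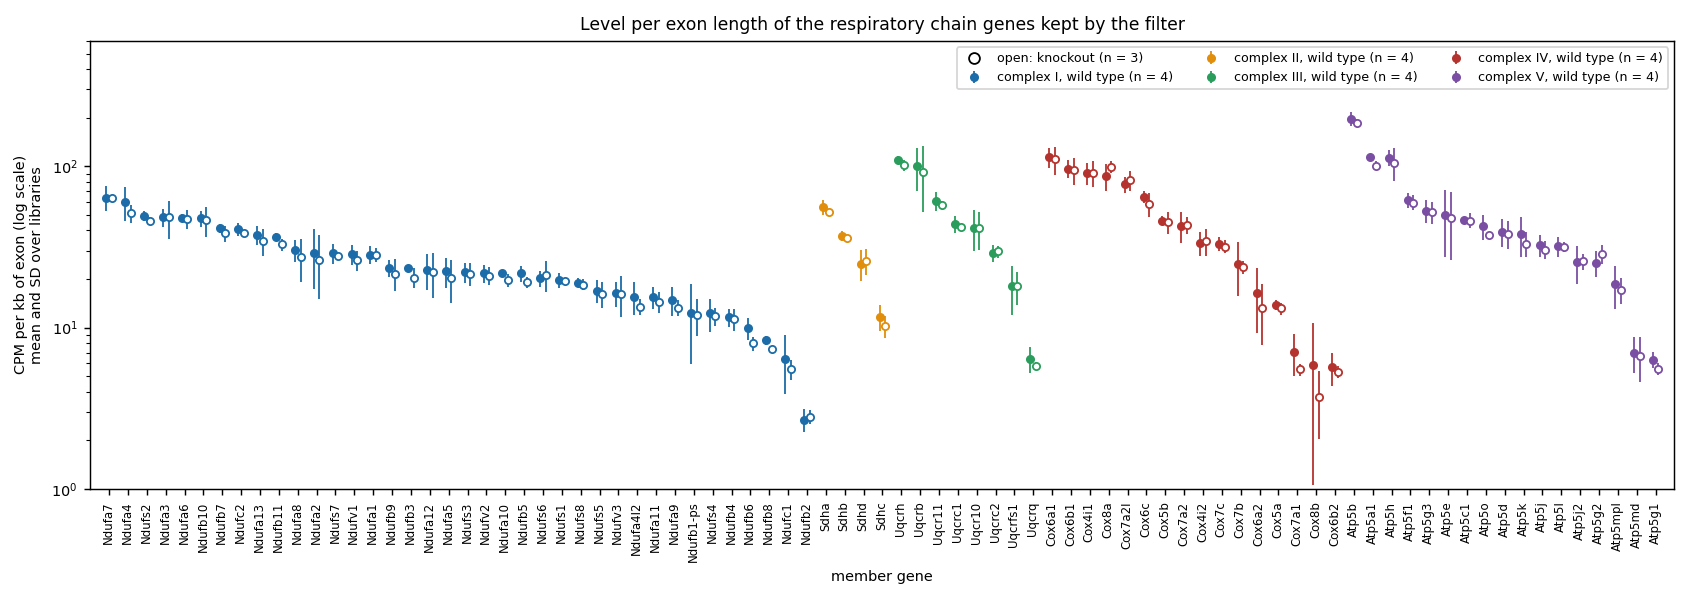
Level of each of the 83 kept members in CPM per kb of exon (log axis), by complex and ordered by wild type level; filled points are wild type means (n = 4), open points knockout means (n = 3), bars the SD over libraries. Atp5b is highest at 197 and Ndufb2 lowest at 2.68 in wild type, and open and filled points lie close together.

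No member passed the test between genotypes. edgeR's quasi-likelihood test called 0 of 83 members at an adjusted p under 0.05, where 7 of 19832 genes were called (0.0353%). At an unadjusted p under 0.05 it also gave 0 members, where 569 genes (2.87%) passed, and DESeq2 called 0 members, where it called 56 of 24962 genes (0.224%). The smallest unadjusted p of a member was 0.109 (Atp5a1, edgeR), and every adjusted p rounded to 1. The 95% interval of the fold change lay within 1.5-fold in either direction for 66 of 83 members, against 56.0% of all genes tested. For these 66 a change beyond 1.5-fold lies outside the interval, and for the remaining 17, which include Cox8b, Cox7a1, Cox6a2, Uqcrb, Atp5e and Ndufa2, it does not.

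The members lay slightly lower in knockout lung in their medians, by an amount that varied with the libraries used. The median log2 fold change was -0.07 over the 83 members and -0.01 over all genes tested, and 71 of 83 members (85.5%) had a negative value, against 52.0% of all genes. By complex the medians were -0.08 for complex I (35 of 38 negative), -0.08 for complex II (3 of 4), -0.07 for complex III (7 of 8), -0.05 for complex IV (11 of 16) and -0.06 for complex V (15 of 17). Without WT6 the median was -0.03 with 52 negative members, and without KO5 it was -0.07 with 53, while it was -0.11 without WT2 and -0.12 without KO3. By complex, the medians without WT6 were -0.05 (I), -0.02 (II), 0.009 (III), -0.03 (IV) and -0.004 (V), so that of complex III changed sign. Without both libraries the median of all members was -0.01 with 47 of 83 negative (56.6%, against 51.8% of all genes). In that fit 0 members were called (0.0701% of all genes) and 1 had an unadjusted p under 0.05 (3.36% of all genes). The medians by complex were then -0.03 for complex I, -0.03 for complex II, 0.01 for complex III (4 of 8 negative), 0.06 for complex IV (6 of 16 negative) and -0.04 for complex V, with a change of sign in complexes III and IV. With a term for the pair in the fit the median was -0.08 and 0 members were called (0.146% of all genes), and 3 members (Sdhc, Ndufa4 and Atp5a1) had an unadjusted p under 0.05, a count to be read against 5.17% of all genes.

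Per library, the median log2 ratio of the members to the wild type mean was -0.11 in WT2, -0.05 in WT3, 0.006 in WT4 and 0.14 in WT6, then -0.03 in KO3, -0.08 in KO4 and -0.11 in KO5. The knockout libraries therefore lay within the range of the wild type ones. In a whole tissue, fewer cells of a type and less RNA per cell cannot be told apart.

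**Figure D2:**
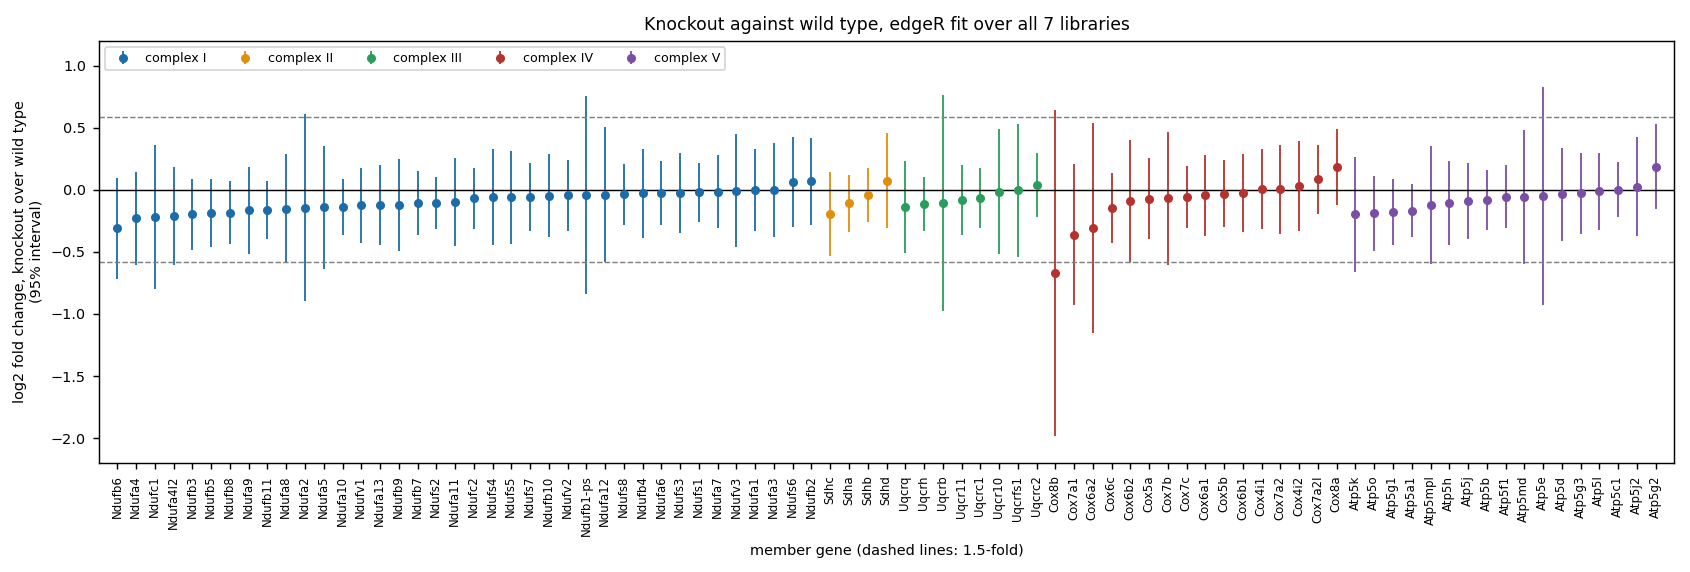
Log2 fold change of each kept member (vertical axis, knockout over wild type, edgeR) with its 95% interval, by complex; dashed lines mark 1.5-fold. All 83 intervals include 0, and 66 lie between the dashed lines.

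Among the 83 members, 4 had all knockout values below all wild type values (4.82%, against 1.61% of all genes) and 0 had all above (2.11% of all genes). They were Atp5a1, Ndufb8, Ndufb3 and Ndufa10. Atp5a1 (chromosome 18, 77773729 to 77782869, plus strand, GRCm38) had 333, 319, 324 and 342 CPM in the wild type libraries, taken in the order WT2, WT3, WT4, WT6, and 316, 280 and 284 CPM in the knockout libraries, taken in the order KO3, KO4, KO5. The same order is used below. The gap between the groups was narrow, with KO3 just under WT3, and the log2 fold change was -0.17 ± 0.10 (SE, unadjusted p = 0.109, edgeR). Its exons overlap those of Haus1 on the other strand, so reads may be shared between them.

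The other 3 are accessory subunits of complex I. Ndufb8 (chromosome 19, 44548572 to 44555440, minus strand), a subunit of the membrane arm, had 20.4, 18.6, 18.1 and 20.6 CPM in the wild type and 17.4, 17.2 and 16.7 CPM in the knockout libraries. Its log2 fold change was -0.18 ± 0.12 (SE). Ndufb3 (chromosome 1, 58586384 to 58595964, plus strand) had 17.8, 18.6, 17.7 and 17.4 CPM against 17.3, 16.3 and 13.1 CPM. Here KO3 lay next to WT6, and KO5 was the low library. Without KO5 its log2 fold change was -0.09, against -0.20 with all libraries, and a near-identical copy (Gm45930) can share its reads. Ndufa10 (chromosome 1, 92439010 to 92473860, minus strand) had 42.7, 44.8, 44.8 and 42.8 CPM against 42.4, 41.6 and 35.3 CPM, with KO5 low again and a log2 fold change of -0.06 without it against -0.14 with it. Counted in either direction, the 4 members were 4.82%, against 3.72% of all genes. Under DESeq2 size factors the number of members whose groups did not overlap was 2 (2.41%, against 3.77% of all genes). Without WT6 and KO5, with 3 libraries against 2, it was 11 of 83 (13.3%, 7 lower and 4 higher), below the 16.7% of all genes.

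Of the other complex I members chosen by their small p, Ndufb6 had the lowest log2 fold change at -0.31 ± 0.19 (SE). Its values were 6.75, 5.30, 7.70 and 6.33 CPM in wild type and 5.61, 4.65 and 5.50 CPM in knockout libraries, and the groups overlapped through WT3. Its exons overlap Smim27 on the other strand. Complex I had 3 members with a positive value, and the highest was Ndufb2 at 0.07 ± 0.16.

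Complex II is made of 4 subunits, and its enzyme also belongs to the citric acid cycle. Sdha, which carries the flavin and oxidises succinate, had 145, 162, 155 and 186 CPM in wild type and 146, 151 and 155 CPM in knockout libraries. Sdhb, the iron-sulfur subunit, had 39.6, 40.2, 45.0 and 44.9 against 42.6, 39.7 and 41.1 CPM. Both genes overlapped between genotypes, with log2 fold changes of -0.11 ± 0.11 and -0.04 ± 0.10 (SE), which were -0.03 and -0.02 without WT6.
The membrane anchor Sdhc had 33.1, 34.8, 33.4 and 47.3 CPM in wild type and 30.1, 28.9 and 38.4 CPM in knockout libraries. WT6 and KO5 were the high libraries of their groups, and the log2 fold change of -0.19 ± 0.15 became -0.06 without WT6 and stayed at -0.19 without both. The other anchor, Sdhd, had 25.6, 29.6, 26.5 and 40 against 28.0, 29.1 and 39.0 CPM, again with WT6 and KO5 highest. Its log2 fold change was 0.07 ± 0.17, and it was 0.24 without WT6 and -0.09 without KO5.

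In complex III the 3 members with the smallest p were Uqcrh (-0.11 ± 0.10, log2 fold change and SE), Uqcrq (-0.14 ± 0.17) and Uqcr11 (-0.08 ± 0.13). Without WT6 these values were -0.12, -0.09 and 0.02. Uqcrh had 55.6, 63.4, 61.7 and 59.1 CPM in wild type and 59.1, 50.8 and 56.4 CPM in knockout libraries. Its highest knockout value was close to that of WT6, and the groups overlapped. In complex V, Atp5g1, one of 3 genes for the same c subunit of the rotor ring, had a log2 fold change of -0.18 ± 0.12, and Atp5o, a subunit of the stalk, had -0.19 ± 0.14. Without WT6 they were -0.12 and -0.06. Atp5b, the beta subunit, had 340, 351, 395 and 424 CPM in wild type and 362, 337 and 372 CPM in knockout libraries, within the wild type range except for KO4. Its log2 fold change was -0.08 ± 0.11, and -0.02 without WT6.

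The isoform genes were next compared by level per kb and by genotype. For each pair the widely expressed form was the higher one in wild type lung, with Cox4i1 at 90.9 ± 14.3 CPM per kb against 33.6 ± 5.72 for Cox4i2, a form known from lung. Cox6a1 had 114 ± 15.9 against 16.4 ± 7.16 for the muscle form Cox6a2, and Cox6b1 had 96.7 ± 12 against 5.67 ± 1.29 for the testis form Cox6b2. Cox7a2 and the related Cox7a2l, a factor in supercomplex assembly, had 42.9 ± 9.47 and 77.4 ± 8.76 against 7.11 ± 2.07 for the muscle form Cox7a1. Cox8a had 87.3 ± 16.6 against 5.90 ± 4.84 for Cox8b, known from muscle and brown fat. Ndufa4, now placed with complex IV, had 60.1 ± 14.5 against 15.6 ± 3.53 for Ndufa4l2. By their symbols both were counted with complex I in all values by complex given here. The c subunit genes Atp5g1, Atp5g2 and Atp5g3 had 6.31 ± 0.70, 25.1 ± 4.52 and 52.9 ± 8.68 CPM per kb.

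Between genotypes none of the wide forms passed the test. Cox4i1 had a log2 fold change of 0.01 ± 0.15 (SE), Cox6a1 -0.05 ± 0.15, Cox6b1 -0.03 ± 0.14 and Cox7a2 0.01 ± 0.16, and each of these changed sign when certain single libraries were left out. Ndufa4 had 31.2, 31.8, 36.4 and 50.6 CPM against 28.9, 30.2 and 36.6 CPM. Its log2 fold change was -0.23 ± 0.17, and it was -0.05 without WT6, its high library. Cox8a had 43.3, 40.9, 46.6 and 61.3 CPM in wild type and 53.3, 50.7 and 59.4 CPM in knockout libraries. All knockout values were above those of WT2, WT3 and WT4 but not of WT6, so its log2 fold change was 0.18 ± 0.14 with all libraries and 0.32 without WT6. Atp5g2 also had a positive value, 0.18 ± 0.16, which was 0.32 without WT6 and 0.08 without KO5.

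The muscle forms had the lowest log2 fold changes of complex IV and the widest 95% intervals. Cox8b had 1.45, 0.64, 1.78 and 4.64 CPM in wild type (24, 10, 24 and 66 counts) and 1.01, 0.96 and 2.03 CPM in knockout libraries (15, 15 and 28 counts). Its log2 fold change of -0.67 ± 0.59 (95% interval -1.99 to 0.65) became 0.05 without WT6 and -0.37 without both WT6 and KO5. Cox7a1 had 3.80, 2.43, 3.85 and 5.13 CPM against 2.97, 3.18 and 2.68 CPM, a log2 fold change of -0.36 ± 0.26 that was -0.18 without WT6 and -0.12 without both. Cox6a2 had 12, 7.28, 17.7 and 7.60 CPM against 9.80, 12.2 and 4.92 CPM, with WT4 the high library and KO5 the low one. Its log2 fold change of -0.31 ± 0.37 became 0.002 without WT4, and its exons overlap Itgad on the other strand.

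Markers of heart muscle, which in mouse also sheathes the pulmonary veins, were measured beside these isoforms. The cardiac list (11 genes in the table) summed to 768, 455, 766 and 980 CPM in the wild type and to 535, 450 and 523 CPM in the knockout libraries. Its median log2 fold change was -0.67, with 5 of 11 genes at an unadjusted p under 0.05 and 0 called, and -0.50 without WT6 and KO5. The highest cardiac sum and the highest Cox7a1 and Cox8b values were all in WT6. Myh6 alone made 461 of the 980 CPM of that sum. Tnni3 (36.6 CPM, against 35.9 in WT6) and Tnnt2 (69.1 against 63.9) were highest in WT2. Myh7 was highest in KO4 (24.9 against 23.9), with a log2 fold change of 0.04 between genotypes. The rest of the cardiac list was highest in WT6. The highest value of Cox6a2 was in WT4.

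WT6 also held markers of fat tissue, including brown fat. Ucp1, the uncoupling protein of brown fat, was at 0 in WT2, WT3, WT4 and KO4, at 0.14 CPM in KO3, at 1.16 CPM in KO5 and at 9.28 CPM in WT6. The summed adipose list reached 70.0 CPM in WT6, where the remaining libraries had 16.2 to 27.9. This list did not move as a whole either. Adrb3 was highest in WT2, and Lep, which was low in all libraries, was highest in WT4. The rest of the adipose list was highest in WT6. Skeletal muscle markers were low, with list sums of 5.60 to 10.4 CPM, and Acta1 and Myh1 were each at 0.3 CPM or less in all libraries. Other marker lists separated WT6 and KO5 from the rest as well. The mesothelium list, which marks the lung's outer lining, summed to 152 CPM in WT6 and 163 CPM in KO5 against 62.1 to 88.7 in the other libraries, with 4 of 5 genes above all others in both. The club cell list summed to 12230 and 10253 CPM in WT6 and KO5 against 15940 to 18344 in the others. Most of this sum was Scgb1a1 (8380 and 6768 CPM, against 12340 to 14580), and the club cell list did not move as a whole. Of the 5 club cell genes, 1 (Scgb1a1) was below all other libraries in both and 1 (Scgb3a1) was above. The part of these tissues and cell types in the values of the members was not tested.

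**Figure D3:**
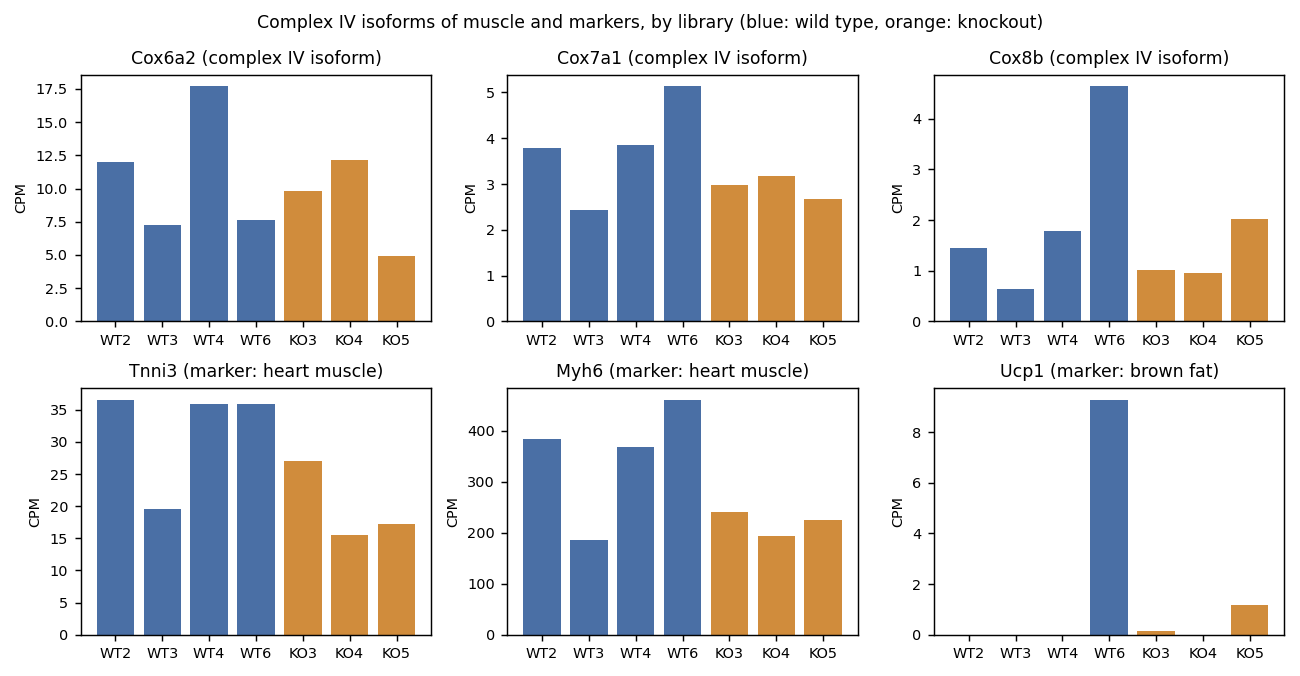
CPM in each of the 7 libraries for Cox6a2, Cox7a1 and Cox8b (upper row), and for the heart muscle markers Tnni3 and Myh6 and the brown fat marker Ucp1 (lower row); bars start at 0. Cox8b (4.64 CPM) and Ucp1 (9.28 CPM) are both highest in WT6, and Cox6a2 is highest in WT4.

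WT6 and KO5 differed from the other libraries of their own genotype in the same direction for 63 of 83 members (75.9%), close to the 78.4% of all 12711 genes at 5 CPM or more. Both were above all other libraries in 22 of 83 members (26.5%, against 16.7% of all 19832 genes tested, low ones included) and both below in 18 (21.7%, against 16.9%). Such shares were not particular to the members. Of 81 cytosolic ribosomal protein genes 42.0% were above and 29.6% below, and of 77 mitochondrial ribosomal protein genes 11.7% and 24.7%. The log2 ratio of WT6 to the other wild type libraries and that of KO5 to the other knockout libraries had r = 0.895 over 83 members, with 37 members up in both and 26 down in both. Over 80 members at 5 CPM or more r was 0.908, and over all genes at that level it was 0.739. These are descriptions across genes, which share the same libraries and are not independent.

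Members at both ends of this pattern are named here after their values were seen. Uqcrb (chromosome 13, 66900617 to 66905378, minus strand), the ubiquinone-binding subunit of complex III, had 54.6, 71.1, 56.0 and 32.6 CPM in wild type and 60.4, 64.0 and 24.5 CPM in knockout libraries. WT6 and KO5 were the low ones, at log2 ratios of -0.90 and -1.35 to the others of their genotype. Atp5e (chromosome 2, 174461072 to 174464105, minus strand), the epsilon subunit of ATP synthase, ran the other way with 14.0, 16.3, 18.6 and 34.6 against 16.0, 13.9 and 30.7 CPM. Its log2 ratios were 1.09 and 1.04.
Ndufa2 (chromosome 18, 36742332 to 36744557, minus strand), an accessory subunit of complex I, had 12.8, 14.1, 13 and 26.5 against 12.1, 10.6 and 22.4 CPM, also with WT6 and KO5 high. Its exons overlap Tmco6 on the other strand. Uqcrb has 3 near-identical copies (Gm16089, Gm2962 and Gm5457). Outside the muscle isoforms, the widest 95% intervals of the fold change between genotypes were -0.98 to 0.76 for Uqcrb and -0.92 to 0.83 for Atp5e.

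Complexes I, III, IV and V each had subunits on both sides of the split. Of complex I, 7 of 38 kept members (18.4%) were above all other libraries in both WT6 and KO5 and 10 (26.3%) were below, where all genes had 16.7% and 16.9%. In complex II, 2 of 4 were above and 0 below. The counts were 2 above and 1 below of 8 in complex III, 5 and 4 of 16 in complex IV, and 6 and 3 of 17 in complex V. Of the 21 protein-coding members with a near-identical copy elsewhere in the genome, 4 were above and 6 below, and of the 61 without a copy, 17 were above and 12 below.

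**Figure D4:**
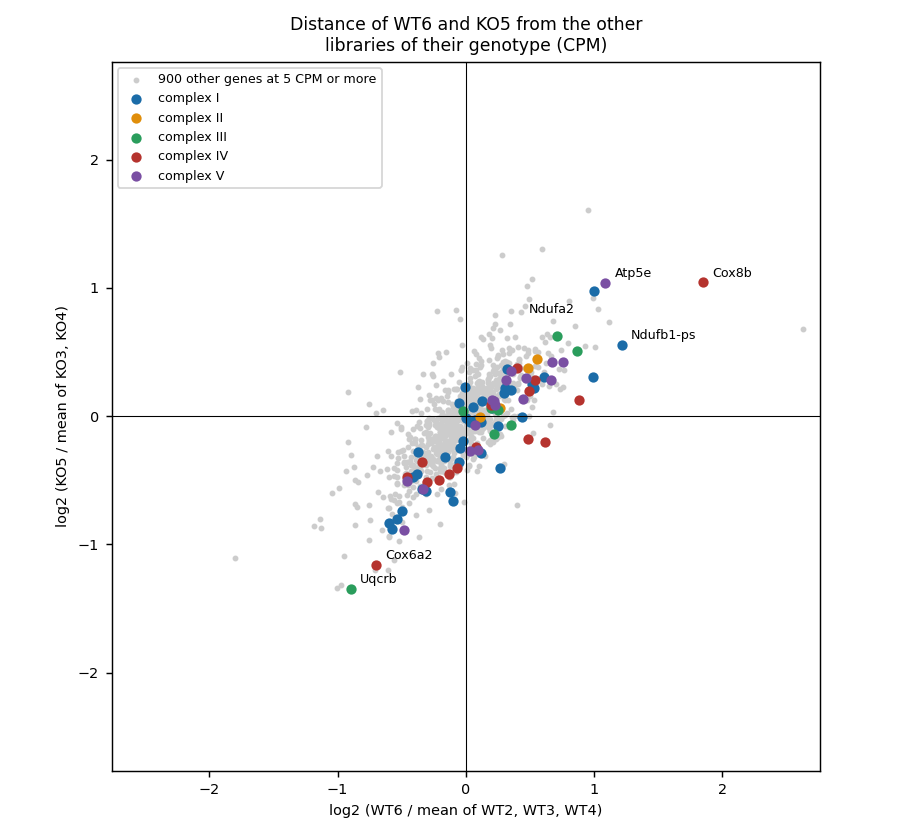
Log2 ratio of WT6 to the mean of WT2, WT3 and WT4 (horizontal) against that of KO5 to the mean of KO3 and KO4 (vertical), in CPM; coloured points are the 83 members by complex and grey points a sample of 900 other genes at 5 CPM or more. Members spread along the diagonal from Uqcrb at the lower left (-0.90 and -1.35) to Cox8b at the right (1.85 and 1.04).

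The summed level of each complex overlapped between genotypes. All members summed to 3505 ± 191 CPM in wild type (SD, n = 4) and 3328 ± 142 CPM in knockout libraries (SD, n = 3), a ratio of 0.949. Complex I summed to 1017 ± 42.3 and 955 ± 58.0 CPM, complex II to 272 ± 32.1 and 256 ± 14.7, complex III to 323 ± 19.1 and 310 ± 17.4, complex IV to 593 ± 22.8 and 587 ± 47.0, and complex V to 1302 ± 83.1 and 1220 ± 42.1. The difference of the means was larger than either SD in complex I and smaller than both in complexes III and IV. In complexes II and V it was smaller than the wild type SD and larger than the knockout SD.

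The 13 subunits encoded by mitochondrial DNA showed a wider spread in their sum than the nuclear ones. That sum rests on few genes, with mt-Co1 at 5473 of 10098 CPM in the wild type mean. By contrast mt-Co2, mt-Co3 and mt-Atp6 had 6.84, 6.01 and 3.48 CPM, and mt-Nd3, mt-Atp8 and mt-Nd4l had 1.01, 0.71 and 0.29. The cause of these low values was not tested. All 13 summed to 10301, 13285, 10057 and 6747 CPM in WT2, WT3, WT4 and WT6, then to 12552 CPM in KO3, 13769 in KO4 and 5693 in KO5. WT6 and KO5 were lowest of all, and 10 of the 11 kept genes were below all other libraries in both. The median log2 fold change of these 11 genes between genotypes was 0.08, with 8 positive and 0 called, and 0.22 without WT6 and KO5. The nuclear members summed highest in WT6 (3726 CPM) and lowest in KO5 (3203 CPM), so the pair did not share a direction in that sum.

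**Figure D5:**
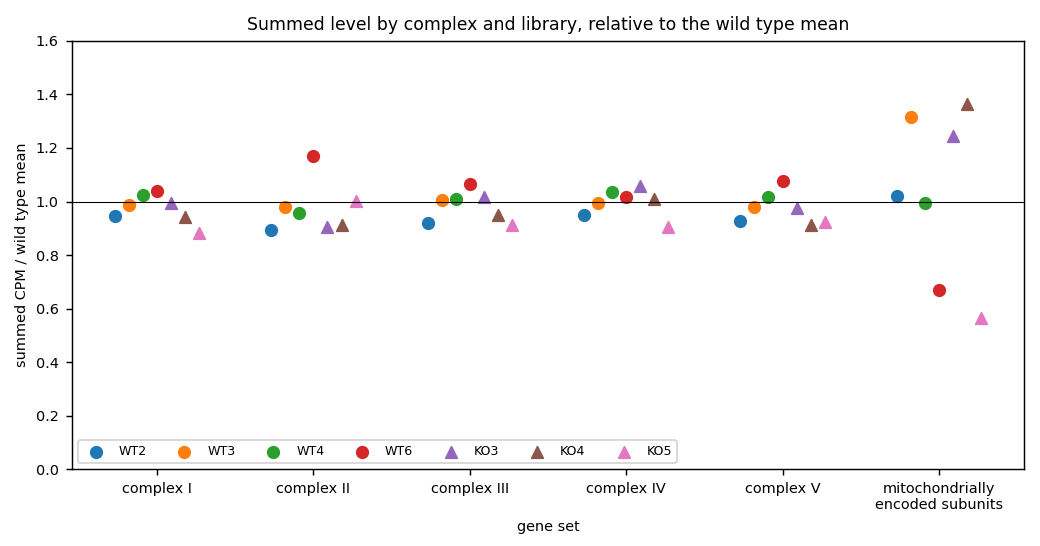
Summed CPM of each complex and of the 13 mitochondrially encoded subunits in each library (circles wild type, triangles knockout), divided by the wild type mean of the set. Nuclear sums lie nearer to 1 than the mitochondrially encoded ones in most libraries, and the mitochondrially encoded sum is lowest in WT6 and KO5.

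Other genes of the pathway were read from fixed lists, and 0 members of any of them were called by edgeR, where 0.0353% of all genes were. Assembly factors, which help build the complexes, had median log2 fold changes of -0.02 for complex I (15 genes kept), 0.11 for complex II (4), -0.12 for complex III (6), -0.02 for complex IV (17) and -0.04 for complex V (4). All 6 assembly factors of complex III had a negative value, and Uqcc3 had the smallest p of them, with a log2 fold change of -0.23 ± 0.18 (SE). Pet100, an assembly factor of complex IV, had -0.34 ± 0.25. The electron carriers and subunits outside the symbol rule had a median of -0.09 over 7 genes, with cytochrome c (Cycs) at -0.12 ± 0.12.

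Regulators of respiratory genes had a median of -0.03 over 14 genes. Nrf1, which encodes the factor whose motif is shown above, had 55.0, 53.6, 57.9 and 52.5 CPM in wild type and 50.8, 52.0 and 50.6 CPM in knockout libraries. All knockout values lay below all wild type values, by a narrow gap, with a log2 fold change of -0.10 ± 0.09 (SE, unadjusted p = 0.305, edgeR). Esrrg, an estrogen-related receptor, had the lowest value of the regulators at -0.40 ± 0.35.

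Enzymes of the citric acid cycle had a median of -0.06 over 16 genes, 14 of them negative. Pdha1, a subunit of pyruvate dehydrogenase, had -0.18 ± 0.10 (SE). Without WT6 and KO5 the median of the list was 0.03 with 7 of 16 negative. Import and outer membrane genes had a median of -0.07 with 13 of 13 negative, and -0.09 with 10 negative without the pair. Among them the channel Vdac3 had 50.5, 54.5, 50.8 and 61.8 CPM against 47.1, 48.6 and 50.5 CPM, with all knockout values just below the wild type ones. Mitochondrial ribosomal proteins had a median of -0.03 over 77 genes, and cytosolic ribosomal proteins one of 0.04 over 81 genes, 25 of them negative.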

How the data were processed

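RNA of whole mouse lung was sequenced in 7 libraries (4 wild type, 3 Scgb3a2 knockout), grouped by the genotype label. The authors deposited raw counts of reads for each gene, as whole numbers. STAR, DESeq2 and mm10 are named, with no version or role, in the submitters' processing notes. The program, annotation and strand setting behind the counts were not given in the sources used here, and those of overlapping genes and near-identical copies could therefore be shared. Totals ranged from 13071262 to 16480006 counts. The limits for 0 counts (3 counts, 0.182 to 0.23 CPM) cover counting error only.

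All 28828 entries were fitted with edgeR 4.0.16 in R 4.3.3 (limma 3.58.1 loaded): its low-count filter by genotype (19832 kept), TMM, and the robust quasi-likelihood test, two-sided, with Benjamini-Hochberg adjustment over all genes kept and a threshold of 0.05. Standard errors are the fold change divided by the root of F, and 95% intervals use the fit's degrees of freedom. CPM uses TMM-scaled totals, and principal components log2 CPM with a prior count of 2. Exon lengths and positions came from GENCODE M21 (GRCm38), matched by symbol for all 91 members, 1 by its alias Usmg5. Near-identical copies are BLAST 2.17.0 matches of at least 95% identity over at least 200 bases. The procedure was tested on simulated data.

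The members and lists were chosen with earlier results of these data known. Named members are, per complex, the 3 with the smallest p and the highest and lowest level per kb, the isoform sets, complex II, and those whose groups did not overlap. Lists contributed their 2 genes with the smallest p, of which some are printed. Uqcrb, Atp5e and Ndufa2 were named after their values were seen. The alternatives were 2 other scalings, DESeq2 1.42.0, no filter, each library left out, WT6 and KO5 left out or given a term, totals without mitochondrial and immunoglobulin genes, and title numbers as a block. Figures were drawn with matplotlib 3.10.9.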

Additional observations from a re-analysis of the deposited data

Results flagged for a closer look

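Sdhc, a membrane anchor of complex II, had 47.3 CPM in WT6, far above the 33.1, 34.8 and 33.4 CPM of the other 3 wild type libraries. The gap to the next library was 0.883 of the range of the group, above Dixon's 95% critical value for 4 samples. The wild type values of 34 named members were examined this way and 1 was picked out. Chance picks out about 1 group in 20.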

How the results depend on the processing

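The call of 0 members held under every alternative run, and the median log2 fold change of the members stayed negative in each (-0.12 without KO3 to -0.03 without WT6 with 1 library left out, -0.01 without WT6 and KO5). The number of genes called among all genes moved from 7 to 56 with DESeq2, 140 with the replicate block, 14 without WT6 and KO5, 29 with a term for them, and 3 (without WT2, WT3 or WT4) to 41 (without KO3) with 1 library left out. Members whose groups did not overlap numbered 4 (4.82%, against 3.72% of all genes), and 2 with DESeq2 or its size factors (3.77% of all genes), 2 with totals that leave out mitochondrial and immunoglobulin genes (3.54%), 11 without WT6 and KO5 (16.7%), and 4 (without WT4 or KO4, 7.21% and 6.65%) to 10 (without WT2, 6.41%) with 1 library left out. Title numbers 3 and 4 occur in both genotypes, but WT3 and KO3 (r = 0.236) and WT4 and KO4 (r = 0.201) deviated together no more than WT4 and KO3 (r = 0.236), so the numbers were not taken as pairs. The replicate block left 1 residual degree of freedom and gave a member median of -0.05. Log2 fold changes that changed sign with this replicate block were Uqcr11 0.076, Cox4i1 -0.073, Cox6a1 0.01, Cox6b2 0.18, Cox7a2 -0.005, Cox7b 0.019 and Ndufa7 0.046. Without WT6 and KO5 they were Uqcr11 0.04, Cox4i1 -0.02, Cox6a1 0.056, Cox6b1 0.057, Cox6b2 0.11, Cox7b 0.17, Ndufa7 0.11 and Ndufb2 -0.012. With a term for the pair they were Cox4i1 -0.028 and Cox7a2 -0.017, and with totals without mitochondrial and immunoglobulin genes Ndufa7 0.002. With 1 library left out, these genes changed sign over ranges of -0.13 to 0.13 (Cox4i1), -0.089 to 0.16 (Cox7a2), -0.085 to 0.24 (Sdhd), -0.12 to 0.13 (Cox6b1), -0.19 to 0.11 (Cox6a1), -0.59 to 0.002 (Cox6a2), -0.029 to 0.16 (Ndufb2), -0.15 to 0.016 (Uqcr11), -0.10 to 0.18 (Cox4i2), -0.22 to 0.048 (Cox6b2), -0.23 to 0.21 (Cox7b), -1.09 to 0.05 (Cox8b), -0.15 to 0.072 (Atp5g3) and -0.092 to 0.11 (Ndufa7). The cause of these changes was not tested. Of all values recomputed, 610 kept their direction and stayed within the spread or within 1.5 times the count, 24 moved and 43 changed sign. Low counts limit Cox8b (10 to 66 counts per library).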
